A study of Mus musculus with 16 samples.

Results

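The markers described here are 6 genes used to recognise cardiac autonomic neurons and the glia that accompany them. They were chosen by name, as the rows of the expression table called Th, Dbh, Prph, Stmn2, Sox10 and Ngfr, out of 16118 genes listed. All 6 were found, and 3 of them (Prph, Stmn2 and Ngfr) had a mean of at least 1 CPM (read counts scaled to a common library size) over the 16 libraries, the minimum for the tests across all genes. The libraries came from 8 mouse embryos at E15.5, each of which gave 1 atrial and 1 ventricular library. The 4 double knockout embryos (dKO) were Meis1flox/flox; Meis2flox/flox; aMHC tg/wt. The 4 control embryos were Meis1flox/flox; Meis2flox/flox; aMHC +/+, so that both floxed genes were shared by all 8 and the Cre transgene set the genotypes apart. Meis1 and Meis2 are TALE homeobox transcription factors, and the alpha-myosin heavy chain promoter drives Cre in cardiomyocytes, so that in this model recombination is directed to heart muscle and not to neurons or glia. The tissue was whole atrium or whole ventricle with the outflow tract removed.

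The series design compares dKO with control tissue in each chamber. The protocol speaks of 4 litters with a control and a dKO embryo from each, whereas the number that opens the titles sorts the embryos into 3 sets. The first title set is dKO embryo 1 alone, the second is control embryos 1 and 2 with dKO embryos 2 and 3, and the third is control embryos 3 and 4 with dKO embryo 4. The reads recovered for the listed genes came to 7.88 to 23.0 megareads per library, and a floor of 3 reads lay between 0.110 and 0.312 CPM. Reads of genes that are not listed are not in these sums. Depth differed by genotype in ventricles, where every dKO library was shallower than every control library. The dKO ventricles had 7.88 to 14.3 megareads (floor 0.169 to 0.312 CPM) and the control ventricles 15.6 to 23.0 (floor 0.110 to 0.158 CPM). In atria the depths overlapped, at 14.3 to 19.3 megareads in dKO and 14.8 to 19.4 in control libraries. Meis1 had a mean of 26.1 ± 3.19 CPM in dKO atria against 40.4 ± 2.61 CPM in control atria (SD, n = 4; log2 difference -0.62, two-sided exact permutation p = 0.0286, the smallest that 4 against 4 libraries allow). In ventricles its means were 40.9 ± 2.41 and 41.5 ± 3.96 CPM (exact permutation p = 0.83, n = 4). Meis2 averaged 23.4 ± 2.85 and 39.2 ± 3.46 CPM in dKO and control ventricles (log2 difference -0.73, exact permutation p = 0.0286, n = 4) and 26.5 ± 1.90 and 25.4 ± 2.04 CPM in atria (exact permutation p = 0.457).

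The heart receives sympathetic axons, whose cell bodies lie outside it in the paravertebral ganglia, and holds parasympathetic ganglia of its own, which lie mainly on the atria. Both kinds of neuron and their Schwann cells and satellite glia come from the neural crest. Sympathetic neurons make noradrenaline from tyrosine by way of tyrosine hydroxylase (Th), aromatic amino acid decarboxylase (Ddc) and dopamine beta-hydroxylase (Dbh). Prph encodes peripherin, an intermediate filament of peripheral neurons, and Stmn2 a tubulin-binding protein of growing axons. Sox10 is the transcription factor of neural crest cells and peripheral glia, and Ngfr is the p75 neurotrophin receptor of neurons, Schwann cells and some mesenchymal cells.

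Promoter sequences from RefSeq (GRCm38.p6, 250 bases before to 50 bases after the start of transcription) were at hand for Th, Dbh, Prph and Ngfr. Those of the pair of noradrenaline enzymes are printed 5′ to 3′ on the strand of the gene, because the levels of both went together over the atria. The capitals mark the only match to a searched motif in them, a cyclic AMP response element. The Th promoter lies at chr7:142899946-142900245 on the minus strand and the Dbh promoter at chr2:27165257-27165556 on the plus strand.
Th: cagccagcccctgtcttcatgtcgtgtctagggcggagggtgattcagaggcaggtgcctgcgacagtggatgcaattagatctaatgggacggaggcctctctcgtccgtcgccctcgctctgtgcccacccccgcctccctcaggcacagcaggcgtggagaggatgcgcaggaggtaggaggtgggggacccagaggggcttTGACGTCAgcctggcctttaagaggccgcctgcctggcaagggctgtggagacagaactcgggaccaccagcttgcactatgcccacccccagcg
Dbh: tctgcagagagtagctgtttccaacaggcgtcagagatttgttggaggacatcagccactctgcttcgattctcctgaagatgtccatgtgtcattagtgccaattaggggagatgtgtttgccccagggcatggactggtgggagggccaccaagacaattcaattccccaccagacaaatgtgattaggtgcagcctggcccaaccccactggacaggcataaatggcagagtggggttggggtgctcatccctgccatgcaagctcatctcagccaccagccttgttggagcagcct
The element TGACGTCA, which is its own reverse complement, begins at -45 relative to the Th start and is found in 1.79% of 32851 promoters of the same length. The E-box core CAGCTG was found in the Ngfr promoter at -25 and in 16.3% of promoters. The MEIS core TGACAG (19.2% of promoters) and the composite PBX-MEIS element (0.222%), which contains that core, were searched on both strands and matched no letters in the 4 windows. A match is a run of letters and not a measured site.

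Th (ENSMUSG00000000214, GRCm38 chromosome 7, 142892752 to 142931128), the rate-limiting enzyme of catecholamine synthesis, was a gene of few reads in every library. In control atria it measured 0.857, 0.331, 1.09 and 1.12 CPM in embryos 1 to 4, and in dKO atria 0.0815, 0.223, 0.379 and 1.08 CPM. The dKO values covered a range from 1 to 21 reads, and dKO atrium 4 reached the level of the control atria while dKO atria 1 and 2 lay below every control atrium. In ventricles Th had 0 reads in 3 of 4 libraries of each genotype, and the others held 4 reads (control 3) and 2 reads (dKO 2). The mean in atria was 0.850 ± 0.366 CPM in control and 0.440 ± 0.441 CPM in dKO embryos (SD, n = 4), 51.7% of control. The log2 difference was -0.38 on the scale of log2(CPM + 1) (two-sided exact permutation p = 0.229). Log2 differences are given on that scale, except those by edgeR, by DESeq2 or with another pseudocount. The log2(CPM + 1) scale understates differences of genes near the added 1 CPM.

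Dbh (ENSMUSG00000000889, chromosome 2, 27165233 to 27183200), the enzyme that turns dopamine into noradrenaline, was detected in every library. Control atria 1 to 4 measured 1.69, 1.04, 3.03 and 1.16 CPM, and dKO atria 0.353, 1.07, 1.06 and 1.98 CPM. Control ventricles measured 0.676, 0.342, 0.309 and 0.750 CPM, against 0.197, 0.364, 0.203 and 0.605 CPM in dKO ventricles. Control atrium 3 was the highest and dKO atrium 1 the lowest of the atria, and the genotypes overlapped in both chambers. Dbh averaged 64.5% of control in dKO atria (log2 difference -0.37, exact permutation p = 0.371, n = 4) and 65.8% in dKO ventricles (-0.18, exact permutation p = 0.229, n = 4).

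Prph (ENSMUSG00000023484, chromosome 15, 99055174 to 99058978) and Stmn2 (ENSMUSG00000027500, chromosome 3, 8509360 to 8561606) spread far more between atria of the same genotype than between genotypes. Prph measured 4.60, 0.640, 19.7 and 3.74 CPM in control atria 1 to 4 and 1.88, 2.86, 7.39 and 10.9 CPM in dKO atria 1 to 4. Stmn2 measured 9.35, 2.27, 28.7 and 8.60 CPM in the control atria and 0.353, 4.19, 12.3 and 15.9 CPM in the dKO atria. Control atrium 3 stood highest for both genes, whereas Prph was lowest in control atrium 2 and Stmn2 in dKO atrium 1, and the highest atrium exceeded the lowest 30.7 times for Prph and 81.1 times for Stmn2.

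In ventricles both genes were low. Prph measured 0.630, 0.0789, 0.357 and 0.165 CPM in control and 0.872, 0.0520, 0.0868 and 0.0955 CPM in dKO ventricles, where libraries 2 to 4 held at most 1 read. The dKO ventricles were also the shallower libraries. Stmn2 was detected in every ventricle, at 2.68, 2.92, 1.31 and 1.92 CPM in control and 1.72, 0.987, 1.24 and 1.18 CPM in dKO embryos. All dKO ventricles but the first lay below every control ventricle for Stmn2, and the first lay between control 3 and control 4. The ventricle of dKO embryo 1 held the highest ventricular Prph, although its atrium held the lowest Stmn2 of all libraries.

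Sox10 (ENSMUSG00000033006, chromosome 15, 79154908 to 79165240) measured 1.06, 0.728, 1.09 and 0.908 CPM in control atria and 0.299, 0.506, 1.45 and 1.73 CPM in dKO atria. The control atria lay close together, and the dKO atria lay below them in embryos 1 and 2 and above them in embryos 3 and 4. Sox10 in ventricles measured 0.117, 0.132, 0.262 and 0.275 CPM in control and 0.816, 0.0520, 0.145 and 0.478 CPM in dKO libraries, with the highest value in dKO embryo 1.

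Ngfr (ENSMUSG00000000120, chromosome 11, 95568818 to 95587735) was present in every library at 62 reads or more. It measured 7.31, 7.97, 13.5 and 7.50 CPM in control atria and 4.59, 9.50, 12.9 and 15.2 CPM in dKO atria. Ngfr in ventricles measured 6.32, 6.18, 4.93 and 3.68 CPM in control and 5.09, 6.49, 6.80 and 4.94 CPM in dKO libraries. Again dKO atrium 1 was the lowest of the atria, and the genotypes overlapped in both chambers.

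**Figure D1:**
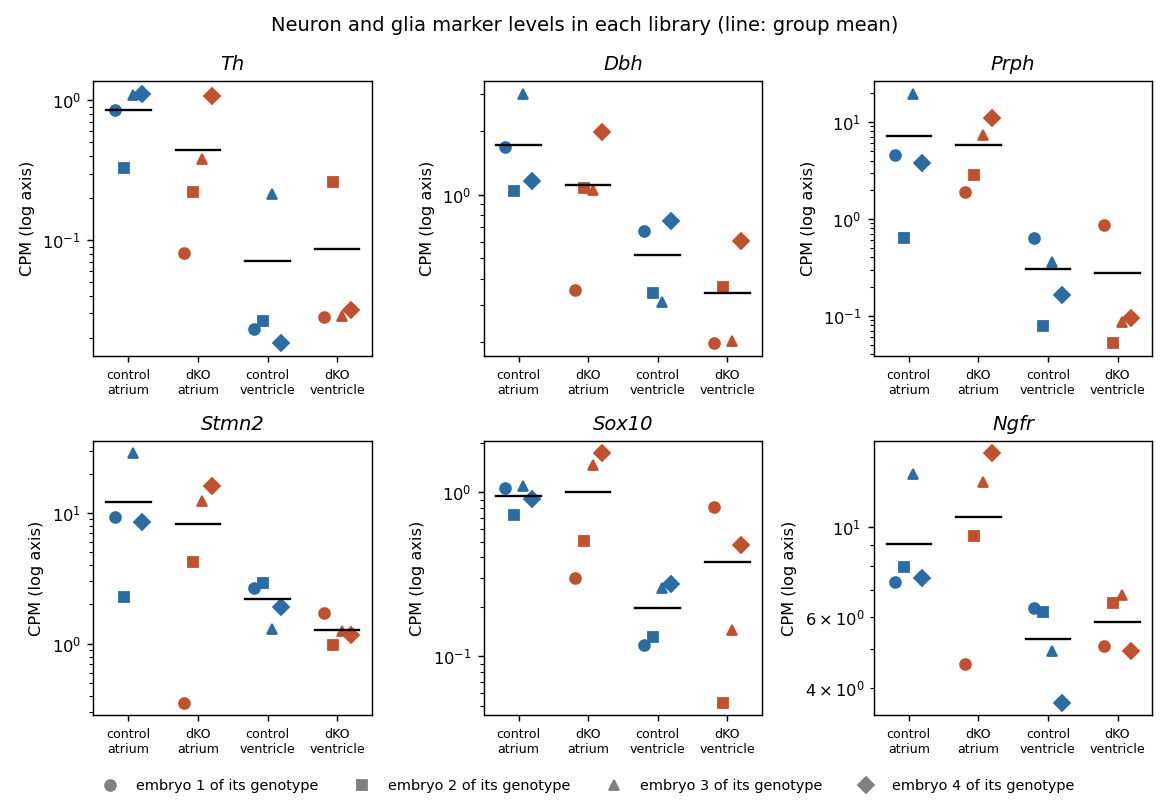
Level of each of the 6 markers (CPM, logarithmic axis) in every library, by genotype and chamber, with 4 libraries per group and a line at the group mean; a library with 0 reads lies at its deposited value, which adds 0.5 read. Atria spread widely within each genotype, from 0.353 to 28.7 CPM for Stmn2, and the genotypes overlap in every panel.

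Per kilobase of exon, Prph (3.58 ± 4.25 CPM per kb), Ngfr (2.63 ± 0.862) and Stmn2 (2.18 ± 2.04) were the highest in control atria, followed by Dbh (0.643 ± 0.338), Th (0.360 ± 0.155) and Sox10 (0.310 ± 0.0545; SD, n = 4). The ranges of mean ± SD overlapped between all neighbours in this order. The markers of the label were present in the atria but did not all go with 1 kind of neuron. The vesicular acetylcholine transporter Slc18a3, of cholinergic neurons, ranged from 0.0272 to 3.08 CPM over the atria. The noradrenaline transporter Slc6a2 lay between 0.0199 and 0.178 CPM and the co-transmitter Npy between 0.0199 and 0.331 CPM, at or near the floor. The glial calcium-binding protein S100b was also low, at most 0.626 CPM in the atria.

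None of the 6 markers was called different between dKO and control tissue, which does not show that they were equal. In the limma fits across 13950 genes, with Benjamini-Hochberg adjustment, 0 of the 3 markers that passed the minimum were called at an adjusted p under 0.05 in either chamber, beside 7.47% of all tested genes in atria and 2.0% in ventricles (0.989% higher and 1.01% lower). Stmn2 had log2 differences of -0.65 ± 0.78 (SE) in atria (adjusted p = 0.713) and -0.47 in ventricles (unadjusted p = 0.0319, adjusted p = 0.330). Prph had 0.07 in atria (adjusted p = 0.969) and -0.06 in ventricles (0.947), and Ngfr 0.13 in atria (0.858) and 0.13 in ventricles (0.804). edgeR and DESeq2 on the recovered reads also called 0 of the 3 in either chamber, and at an unadjusted p under 0.05 each tool passed 0 in atria and 1, Stmn2, in ventricles, beside 20.3% to 20.5% of all genes in atria and 11.7% to 12.8% in ventricles.

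Tested singly by exact permutation of 4 against 4 libraries, no marker reached 0.05 in either chamber. The smallest p was that of Stmn2 in ventricles, with 1.28 ± 0.310 CPM in dKO tissue against 2.21 ± 0.735 CPM in control tissue (SD, n = 4; exact permutation p = 0.0571). Sox10 had log2 differences of -0.03 in atria (exact permutation p = 0.914, n = 4) and 0.17 in ventricles (exact permutation p = 0.457, n = 4). In no marker were the genotypes fully separated, whereas 14.1% of tested genes in atria and 8.11% in ventricles had groups that did not overlap. In these bulk samples, fewer neurons or glia and less RNA per cell cannot be told apart.

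**Figure D2:**
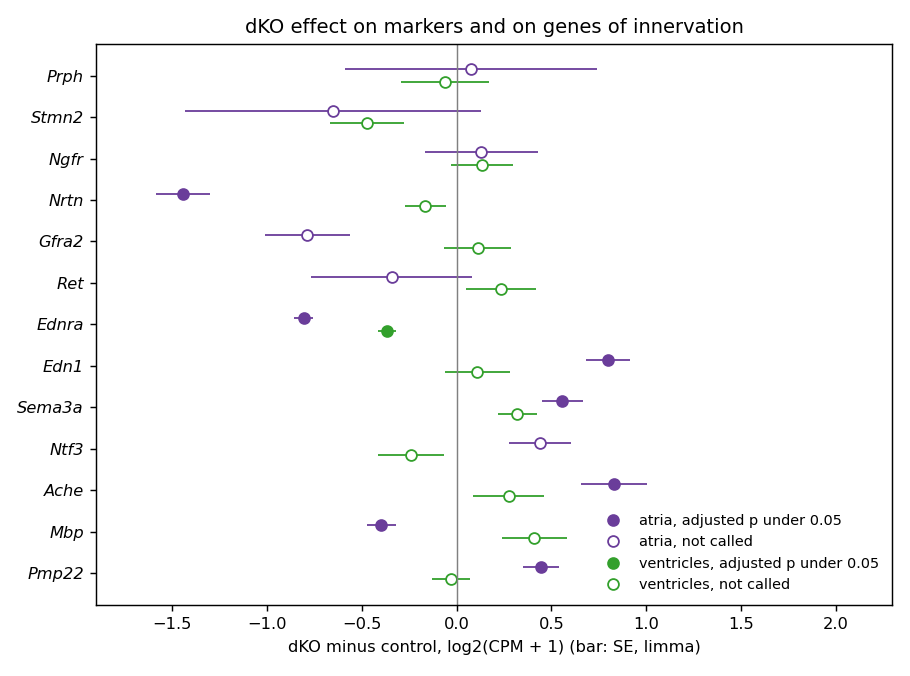
Log2 difference between dKO and control libraries (log2(CPM + 1), bars are ± 1 SE from limma) in atria and in ventricles, for the markers that passed the minimum and for genes of neurons, glia and their trophic factors. Filled points have an adjusted p under 0.05, and Stmn2, Prph and Ngfr are open in both chambers.

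The sign of the atrial differences of Stmn2, Prph, Ngfr and Sox10 changed when single embryos were left out. Th (-0.99 to -0.11) and Dbh (-0.64 to -0.14) were below 0 under every alternative run, but Dbh was not within the third title set. For both genes the lowest value was by edgeR without the filter and the highest with a pseudocount of 5. These 2 ranges therefore mix scales. Without dKO atrium 1, the 1 atrium of the first title set, the log2 difference of Stmn2 in atria was 0.09 in place of -0.65, that of Prph 0.41 and that of Ngfr 0.44 (limma adjusted p = 0.964, 0.81 and 0.275). Without control atrium 2, Stmn2 measured -1.18 and Prph -0.51, and without dKO atrium 4 Ngfr measured -0.07 (limma adjusted p = 0.492, 0.730 and 0.926). Sox10 measured 0.15 without dKO atrium 1 and -0.20 without dKO atrium 4 (exact permutation p = 0.514 and 0.457). Within the second title set, with 2 embryos of each genotype, Stmn2 measured 0.51, Prph 0.91 and Ngfr 0.48 (limma adjusted p = 0.672, 0.414 and 0.137). Within the third, with 1 dKO and 2 control embryos, the values were 0.01, 0.26 and 0.54 and have no test. The negative differences of Th and Dbh in atria came to -0.26 and -0.17 without dKO atrium 1. Stmn2 in ventricles kept its negative sign under each of the 17 alternatives run, from -0.85 to -0.19.

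By chamber the markers were higher in atria. Compared within embryos over all 8, Dbh and Prph were higher in the atrium of every embryo, by 0.71 ± 0.437 and 2.15 ± 1.22 on the log2 scale (SD, n = 8; two-sided exact sign permutation p = 0.00781, the smallest that 256 arrangements allow). All tested genes included 18.2% that were higher in the atrium of every embryo. Th was higher in the atrium by 0.57 ± 0.421, Sox10 by 0.60 ± 0.479 and Ngfr by 0.66 ± 0.545, each in 7 of 8 embryos (exact permutation p = 0.0156, n = 8). Stmn2 was higher by 1.57 ± 1.58 in 6 of 8 embryos (exact permutation p = 0.0312, n = 8). The exceptions were control embryo 2 and dKO embryo 1 for Stmn2, dKO embryo 1 for Sox10 and Ngfr, and dKO embryo 2 for Th. This comparison over embryos was added after the data had been seen.

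A limma fit over the 16 libraries that treated embryo as a block called the 3 tested markers lower in control ventricles than in control atria, beside 46.9% of all tested genes in either direction (26.4% higher in ventricles, 20.5% lower). Prph had a log2 difference of -2.08 (adjusted p = 0.00283), Stmn2 of -1.66 (0.0312) and Ngfr of -0.66 (0.0340). In dKO embryos, where 49.1% of all genes were called (26.5% higher in ventricles, 22.5% lower), Prph (-2.22, adjusted p = 0.00161) and Ngfr (-0.66, 0.0332) were called and Stmn2 was not (-1.48, adjusted p = 0.0508). Whether the dKO effect itself differed by chamber was tested as an interaction, and limma called none of the 3 (Prph -0.14, Stmn2 0.18, adjusted p = 0.973 and 0.970), beside 2.64% of all genes (1.31% higher and 1.33% lower in ventricles), and neither edgeR nor DESeq2 called any, with 0 at an unadjusted p under 0.05.

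The chamber results of Stmn2 and Ngfr lay near the threshold, and their calls changed when single embryos were left out, in some runs with little change in the log2 difference. In control embryos Stmn2 lost its call without embryo 1 (-1.71, adjusted p = 0.0786), 3 (-0.98, 0.242) or 4 (-1.64, 0.0966) and by DESeq2 (-2.05, 0.0716), and Ngfr without embryo 3 (-0.45, 0.207) or 4 (-0.60, 0.116). In dKO embryos Stmn2 gained a call without dKO embryo 1 (-2.30, adjusted p = 0.00205), without control embryo 2 or 3, by edgeR (-2.28, 0.0407) and with the title set as a covariate, and Ngfr lost its call without dKO embryo 2, 3 or 4 (-0.72 to -0.40, adjusted p 0.0576 to 0.231). Prph kept its call under every alternative.

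**Figure D3:**
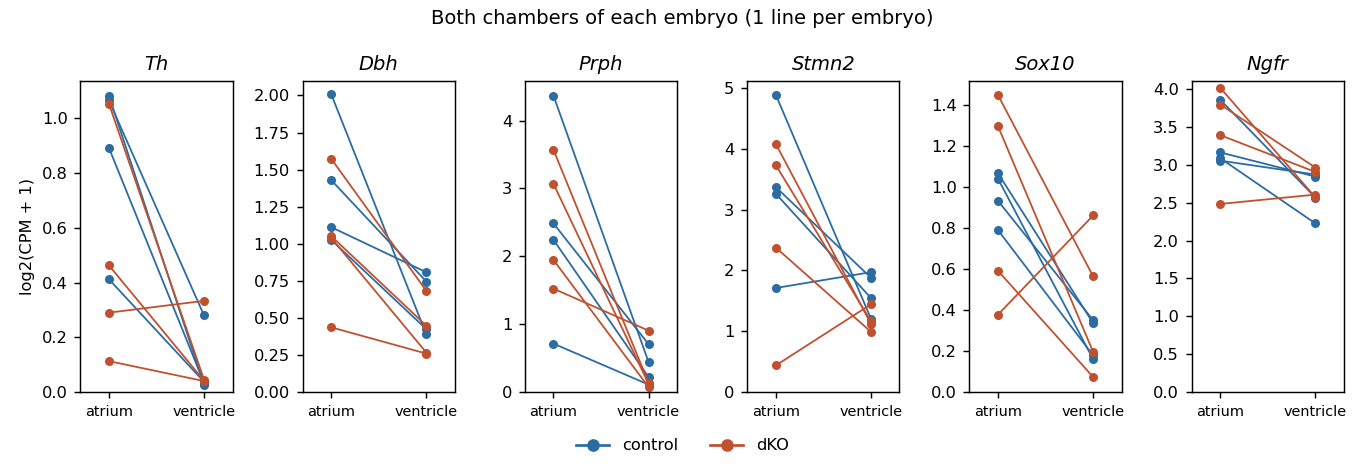
Level of each marker, log2(CPM + 1), in the atrium and the ventricle of each of the 8 embryos, with a line joining both chambers of an embryo. Prph and Dbh lie higher in the atrium of every embryo, and Stmn2 in 6 of 8.

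The spread of Stmn2 and Prph between atria of a genotype was among the widest of all genes. The within-genotype SD in atria was 1.49 (log2) for Stmn2, rank 38 of 13950 tested genes, and 1.26 for Prph, rank 62, against a median of 0.137. Ngfr had an SD of 0.55, rank 311. In ventricles, where both levels were low, the SD was 0.28 for Stmn2 and 0.34 for Prph, ranks 1606 and 896, beside a median of 0.128.

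Some of the markers went together over the atria. Among the 15 pairs of markers, Pearson's r over the 8 atria ran from 0.50 to 0.90, and 8 pairs had an adjusted p under 0.05 by exact permutation of pairings, while 7 did not; by Spearman's rho 5 passed and 10 did not. Prph and Stmn2 had r = 0.88 (exact permutation p = 0.00417, adjusted over the 15 pairs 0.0280) and Spearman's rho = 0.98 (exact permutation p = 0.000397, adjusted 0.00595), and r = 0.87 without the 2 atria farthest from the median of Prph. Th and Dbh had r = 0.81 (exact permutation p = 0.00928, adjusted 0.0280) and rho = 0.79 (exact permutation p = 0.0279, adjusted 0.0698), and r = 0.91 without the 2 atria farthest from the median of Th. Stmn2 and the glial Sox10 had r = 0.84 (exact permutation p = 0.00945, adjusted 0.0280) and rho = 0.90 (exact permutation p = 0.00456, adjusted 0.0342), with r = 0.67 without the 2 farthest atria of Stmn2. For other pairs the relation rested more on such atria, since r came to 0.47 from 0.82 for Sox10 and Ngfr and to 0.33 from 0.74 for Dbh and Ngfr without 2 atria. No title set held 6 atria, so no value within 1 could be given. In ventricles r of the pairs ran from -0.58 to 0.56.

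**Figure D4:**
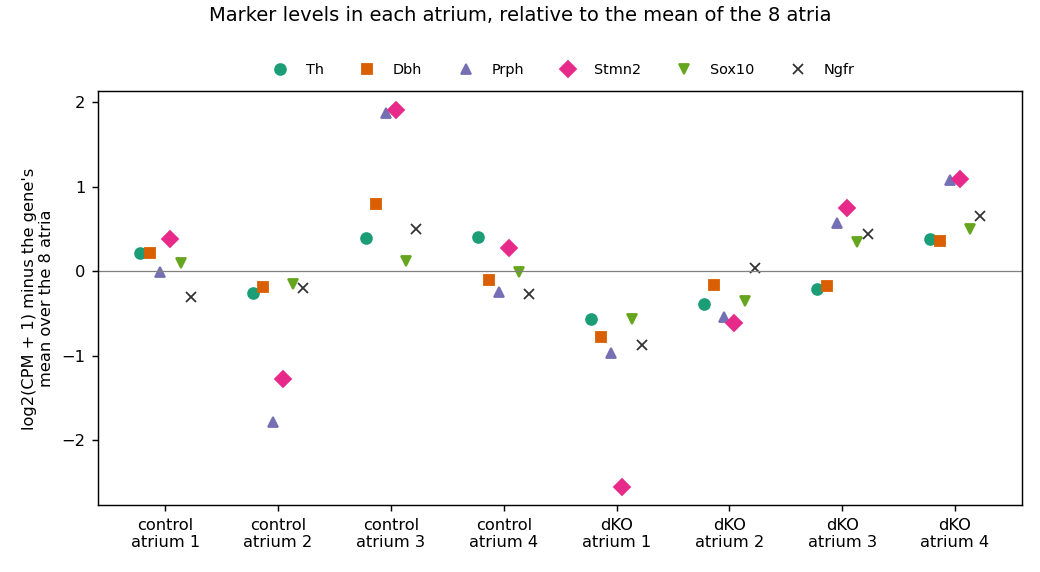
Level of the 6 markers in each atrium, log2(CPM + 1) minus the mean of that marker over the 8 atria. All or most markers lie above the mean in control atrium 3 and dKO atrium 4 and below it in dKO atrium 1 and control atrium 2.

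A wider list of 16 cytoskeletal and RNA-binding genes of neurons, of which 12 passed the minimum, followed the same atria. Of the 12, 11 were highest in control atrium 3 and 8 were lowest in dKO atrium 1. The list holds Prph and Stmn2 themselves, both counted among the 11, and Stmn2 also among the 8. The share of all tested genes with these extremes was not computed. The rank correlation with Stmn2 over the 8 atria, given as a description, was 1.0 for the tubulin Tubb3 and the neurofilaments Nefl and Nefm. Its median over the 11 genes other than Stmn2, Prph among them, was 0.98, against -0.02 over all 13949 other tested genes. The autonomic transcription factor Phox2a (0.93) and the GDNF receptor kinase Ret (0.95) had like ranks, but their lists as a whole spread widely, from -0.57 to 1.0 with a median of 0.74 over 9 autonomic transcription factors and from -0.60 to 0.95 with a median of 0.14 over 16 trophic and guidance genes. Sema3a had -0.38 and Nrtn 0.14. Uchl1, a ubiquitin hydrolase of neurons, did not (0.19), and it was expressed at 70.9 CPM in atria and 72.8 CPM in ventricles. Tubb3 ranged from 0.353 CPM in dKO atrium 1 to 20.9 CPM over the atria.

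By likeness over all 16 libraries (Pearson's r of deviations from the 4 group means, a description with both chambers of an embryo among the points), the genes nearest to Stmn2 were Nefm (0.96), Nefl (0.95), Tubb3 (0.95), the axonal motor Kif5a (0.95) and the synaptic vesicle protein Syp (0.94). Those nearest to Prph were Celf3 (0.97), Nefl (0.95), Pcbp3 (0.95), Aatk (0.95) and Syn2 (0.95). Those nearest to Ngfr were Pik3cd (0.93), the sodium channel subunit Scn3b (0.91), Slitrk6 (0.91), Ptger4 (0.89) and Fbln7 (0.89). For the low markers Th, Dbh and Sox10, the nearest genes were Txn1 (0.92), Irx2 (0.88) and Bmp4 (0.90), followed by Ap3b2, Ass1, Litaf and Gap43 for Th, Tub, Rundc3b, Egfr and Phox2a for Dbh, and Shd, Gm20388, Nabp2 and Slc12a5 for Sox10. At these read counts the order among such genes carries little weight.

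Some of the other genes of neurons and glia were called different between genotypes in atria, where 7.47% of all tested genes were called in either direction. In atria, 0 rose and 1 fell of 7 tested genes of noradrenaline synthesis, storage and uptake, beside 4.04% of all genes higher and 3.43% lower. The one that fell was Ddc, from 7.18 ± 1.71 to 3.55 ± 0.864 CPM (SD, n = 4; log2 -0.84 ± 0.19 SE, limma adjusted p = 0.0195). The vesicular monoamine transporter Slc18a2 averaged 14.97 and 14.99 CPM in control and dKO atria (log2 -0.00183, adjusted p = 0.996). Ddc did not follow Th by chamber, since it measured 117 ± 19.3 CPM in control ventricles, where Th was at or near 0 reads. Of 8 ventricular myocyte markers, 3 fell in dKO atria (Gja1, Lrrc10 and Myl3), and the summed level of the 8 was 336 to 1153 CPM against 631 to 1835 CPM in control atria; their part in the Ddc value was not tested. The atrial call of Ddc was lost within the second title set (-0.79, adjusted p = 0.123) and without control embryo 2, 3 or 4 or dKO embryo 2 (-0.81 to -0.75, adjusted p 0.0554 to 0.0668).

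Of 9 tested autonomic transcription factors, 1 rose in dKO atria and 0 fell. Sox11 was higher by 0.28 (adjusted p = 0.0409), a call lost within the second title set and without control embryo 1, 2 or 4 or dKO embryo 1, 3 or 4 (0.24 to 0.34, adjusted p 0.0533 to 0.125). The 12 pan-neuronal genes included 1 that rose, Uchl1 (0.46, adjusted p = 0.0166), with a median log2 difference of -0.17 beside 0.00 over all genes, and the call was lost without control embryo 1 or 2 or dKO embryo 3 (0.42 to 0.44, adjusted p 0.0534 to 0.0557). Among 6 tested vesicle genes, limma, edgeR and DESeq2 each called 0, with 4, 3 and 2 at an unadjusted p under 0.05, beside 20.3%, 20.4% and 20.5% of all genes. The cholinergic list had 1 tested gene, the acetylcholinesterase gene Ache, which rose from 7.58 ± 1.90 to 14.2 ± 2.86 CPM (SD, n = 4; log2 0.83 ± 0.17 SE, limma adjusted p = 0.0136). Ache did not rank with Stmn2 over the atria (rank correlation 0.07), and it averaged 6.07 CPM in ventricles and 10.9 CPM in atria. Chrna3, a nicotinic receptor subunit of autonomic ganglia and below the minimum, measured 1.59 ± 1.76 CPM in control and 1.46 ± 1.04 CPM in dKO atria (SD, n = 4).

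Of 8 tested Schwann cell and glial genes, 1 rose and 2 fell in dKO atria, beside 4.04% of all genes higher and 3.43% lower. The myelin gene Mbp fell from 24.2 ± 1.75 to 18.1 ± 0.952 CPM (SD, n = 4; log2 -0.40, limma adjusted p = 0.00820), and Cnp fell by 0.32 on the log2 scale (adjusted p = 0.0455). Pmp22 rose by 0.45 (adjusted p = 0.0145). The Cnp call was lost in 10 of the 17 alternatives (adjusted p up to 0.131), that of Mbp within the second title set (-0.42, 0.0537) and that of Pmp22 without control embryo 4 (0.41, 0.0513). Mbp, Cnp and Pmp22 are also expressed outside glia, and Mbp had a rank correlation of -0.10 with Stmn2 over the atria. Of 4 tested melanocyte genes, another neural crest lineage, limma and edgeR called 0 in atria and DESeq2 called 1, with 1 at an unadjusted p under 0.05 by each tool.

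In ventricles limma called 0 of the 7 noradrenergic, 9 transcription factor, 12 pan-neuronal, 6 vesicle, 8 glial and 4 melanocyte genes tested, as did edgeR and DESeq2. Of all 13950 tested genes limma called 2.0%, while edgeR called 259 genes and DESeq2 469. In lists this short, 0 calls lie close to such shares. At an unadjusted p under 0.05 limma passed 1, 2, 1, 0, 1 and 0 of them, beside 12.8% of all genes.

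Among signals that growing axons meet, Nrtn had the largest atrial difference of the called genes in these neuronal, glial and trophic lists. Of 16 tested neurotrophins, GDNF family members, axon guidance genes and their receptors, 2 rose and 2 fell in dKO atria, beside 4.04% of all genes higher and 3.43% lower. Nrtn encodes neurturin, the GDNF family ligand on which cardiac parasympathetic neurons depend. It measured 19.2, 19.7, 20.4 and 23.5 CPM in control atria and 7.69, 7.43, 4.84 and 8.38 CPM in dKO atria, so that every dKO atrium lay below every control atrium. Nrtn fell to 34.2% of control (log2 -1.44 ± 0.14 SE, limma adjusted p = 0.000111). In ventricles it measured 11.7 to 14.6 CPM in control and 10.1 to 13.2 CPM in dKO libraries (log2 -0.16, adjusted p = 0.572), and the interaction of genotype and chamber was 1.28 (adjusted p = 0.000177).

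Ednra, the endothelin A receptor, fell in both chambers. It measured 94.7 to 98.4 CPM in control and 52.2 to 57.9 CPM in dKO atria (log2 -0.81 ± 0.05 SE, limma adjusted p = 4.66e-06). Its ventricular range was 54.0 to 57.5 CPM in control and 41.0 to 43.8 CPM in dKO libraries (-0.37, adjusted p = 0.00186), and the chambers differed by 0.44 (adjusted p = 0.000249). The ventricular call was lost within the second title set (-0.32, adjusted p = 0.167). The ligand gene Edn1, which encodes an endothelin, rose in dKO atria, where it averaged 20.6 ± 2.56 CPM against 11.4 ± 1.85 CPM in control atria (SD, n = 4), a log2 difference of 0.80 ± 0.12 (SE, limma adjusted p = 0.00175) with no overlap.

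Sema3a, an axon repellent that patterns cardiac sympathetic innervation, rose in atria from 32.2 ± 1.55 to 48.3 ± 7.95 CPM (SD, n = 4; log2 0.56 ± 0.11 SE, limma adjusted p = 0.00879). Gfra2, the receptor of neurturin, was chosen after its values were seen. It measured 11.3, 9.86, 10.7 and 10.6 CPM in control and 3.29, 4.64, 7.51 and 8.89 CPM in dKO atria. These groups did not overlap, as in 14.1% of all tested genes in atria. Gfra2 was not called (log2 -0.79 ± 0.22 SE, limma adjusted p = 0.0574). Within the dKO atria Gfra2 had the same order as Stmn2, lowest in embryo 1 and highest in embryo 4, whereas Nrtn was lowest in embryo 3. The control atria did not share that order, since Gfra2 was highest in control embryo 1 and Stmn2 in control embryo 3. Over all 8 atria the rank correlation of Gfra2 with Stmn2 was 0.50. Ret, the signalling partner of Gfra2, measured 2.25, 1.13, 6.59 and 2.64 CPM in control and 0.625, 1.07, 3.45 and 3.93 CPM in dKO atria (log2 -0.34, adjusted p = 0.724).

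**Figure D5:**
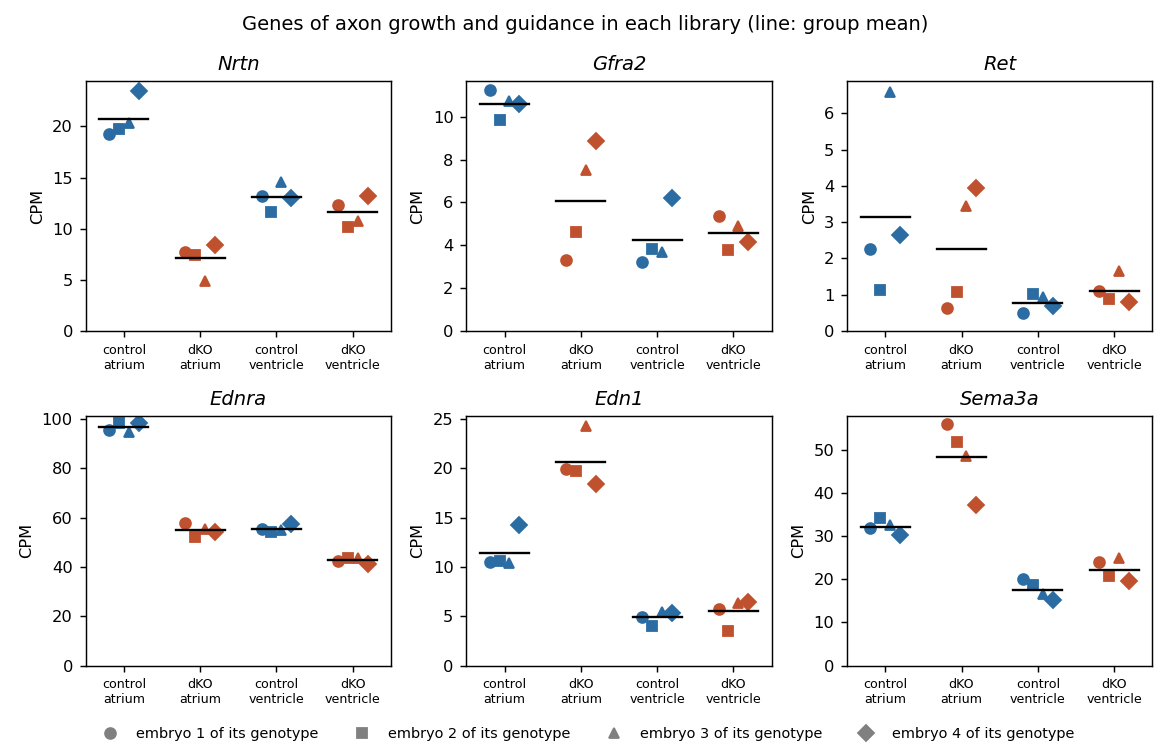
Level in CPM of Nrtn, Gfra2, Ret, Ednra, Edn1 and Sema3a in every library, by genotype and chamber. The dKO atria lie below the control atria for Nrtn, Gfra2 and Ednra and above them for Edn1 and Sema3a, and overlap them for Ret. In atria 14.1% of all tested genes had groups that did not overlap.

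Markers of other cells moved in some of these libraries. All 10 fibroblast markers had positive log2 differences in the dKO atria, and 3 were called higher, beside 4.04% of all genes. All 8 macrophage and all 8 epicardial markers were also positive, with 1 called in each list. Of 8 endothelial markers 7 were positive, with 2 called higher and 1 called lower. The median log2 difference over all genes was -0.00462. The summed level of the fibroblast markers was 5592 to 7461 CPM in control and 6518 to 10759 CPM in dKO atria. The summed level of 8 macrophage markers was 80.1 to 97.5 CPM in control and 83.4 to 141 CPM in dKO atria, and that of 8 epicardial markers 378 to 444 CPM against 450 to 539 CPM. For both the fibroblast and the macrophage list, dKO atrium 1 was the lowest of the dKO atria. By chamber, the epicardial sum was 113 to 152 CPM in control ventricles. The pan-neuronal sum over 15 listed genes was 90.4 to 246 CPM in control and 94.3 to 216 CPM in dKO atria. A large part of that sum was Uchl1, which did not rank with Stmn2 (0.19) and rose in dKO atria (log2 0.46). The part of these other cells in the values above was not tested.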

How the data were processed

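The deposited values are gene counts normalized for library size (CPM), and per the submitters' processing notes the authors trimmed reads with cutadapt and quantified them with RSEM 1.3.1 on GRCm38. How the values were normalized and filtered, and whether counting used strand, is not given in the sources used here. All deposited values equal whole reads plus 0.5, multiplied by 1 step per library (100% of values within 0.001). These reads gave depths over the listed genes and the tests with edgeR 4.0.16 and DESeq2 1.42.0. Recovered depth limits genes of few reads, such as Th, to counting error of their own size, and intervals were not computed for CPM. The main test was limma 3.58.1 (R 4.3.3) with a mean-variance trend on log2(CPM + 1), two-sided, over 13950 genes whose mean reached 1 CPM, adjusted by Benjamini-Hochberg over all of them. Atria and ventricles were fitted separately. Chamber comparisons and the difference between chambers used all 16 libraries with embryo as a random block, since each embryo gave both chambers (consensus correlation 0.108). The fits were tested on simulated data. Single markers were compared by exact permutation. Coordinates and exon lengths came from GENCODE M21 (GRCm38), and no exon of the 6 markers overlapped another gene. The labels do not say that the replicates within a genotype are from separate litters, so p-values measure the spread between these embryos.

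The members, the gene lists and the tests were chosen with earlier results of these data known. The genes named are the 6 markers, Meis1 and Meis2, genes of the neuronal, glial, trophic and melanocyte lists called in a dKO comparison (up to 4 per list), otherwise members with high levels, and the 5 genes most like each marker. Slc18a2, Slc18a3, Slc6a2, Npy, S100b, Chrna3, Gfra2 and Ret, and the genes ranked with Stmn2, were named after their values were seen. Alternatives were other pseudocounts (0.5 and 5), no filter, TMM re-centring, edgeR, DESeq2, the title set as a covariate, the second title set alone, no block, and leaving out each replicate.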

Additional observations from a re-analysis of the deposited data

Results flagged for a closer look

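Among 24 groups of 4 libraries (6 markers in 4 groups), 4 held 1 library far from the other 3; the gap to the nearest library, divided by the group's range, was above the limit for groups of 4. Chance gives about 1 in 20 such groups where values are normally distributed, which is not known for these CPM values. That rate does not hold for Th in ventricles, whose 3 other libraries were all at 0 reads. Nor does it hold for Prph in dKO ventricles, whose 3 other libraries held at most 1 read. In Th these were control ventricle 3 (gap over range 0.956, 4 reads where the others had 0) and dKO ventricle 2 (0.982, 2 reads where the others had 0). Prph stood apart in dKO ventricle 1 (0.930, at 0.872 CPM) and Ngfr in control atrium 3 (0.864, at 13.5 CPM).

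The dKO effect differed between chambers (ventricles minus atria, limma with embryo as a block) for 1 of 9 autonomic transcription factors, 1 of 8 glial and 2 of 16 trophic genes tested, beside 2.64% of all genes. Nrtn differed by 1.28 (adjusted p = 0.000177) and Ednra by 0.44 (adjusted p = 0.000249), and both calls held under every alternative run. Mbp differed by 0.81 (adjusted p = 0.0193), a call lost without control embryo 1, 3 or 4 or dKO embryo 3 (0.74 to 0.84, adjusted p 0.0539 to 0.0889). Sox11 differed by -0.60 (adjusted p = 0.0164), a call lost without control embryo 4 or dKO embryo 3 (-0.59 to -0.55, adjusted p 0.0611 and 0.0889).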

How the results depend on the processing

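The 0 of 12 single-marker tests past 0.05 stayed 0 with a pseudocount of 0.5 or 5. Called genes in ventricles numbered 279, but 469 by DESeq2 and 79 within the second title set, and 1042 in atria. Leaving out 1 library gave 695 to 1201 in atria and 187 to 261 in ventricles. Leaving out 1 embryo gave 5461 to 6848 for the chamber comparison in control embryos (6543 with all), 5883 to 6659 in dKO embryos (6844 with all) and 238 to 470 for the difference between chambers (368 with all; 241 without control embryo 4 and 238 without dKO embryo 3). Without the replicate block that pairs the chambers of an embryo, these 3 counts were 6160, 6515 and 294, and no marker's call was lost or gained. The chamber comparison in control embryos gave 3678 genes higher and 2865 lower in ventricles, but 3118 and 3297 after re-centring on TMM factors, and the 3 tested markers were lower under both. No result changed direction among called values. Genes of few reads (Th, Dbh, Sox10 and, in ventricles, Prph) were the least precise.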
